A study of Mus musculus with 24 samples.

Results

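The nuclear genes of the mitochondrial respiratory chain and of ATP synthase were followed in lumbar spinal cord of mice given paclitaxel, a taxane chemotherapy drug that stabilises microtubules and causes painful neuropathy. Members were the rows of the deposited count table whose gene symbol starts with Ndufa, Ndufb, Ndufc, Ndufs or Ndufv and a number, with Uqcr, with Cox and a number from 4 to 8, or with Atp5. Rows whose name ends in -ps and a number were left out. The pattern found 92 rows, 5 were left out, and 87 of the 55418 rows of the table remained. These were 39 rows of complex I, 8 of complex III, 21 of complex IV and 19 of ATP synthase. Ndufa4 and its relative Ndufa4l2 were placed in complex IV, where the Ndufa4 protein is now known to belong despite its name.

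The 24 libraries come from 24 C57BL/6J mice aged 8 to 10 weeks, 3 in each of 8 groups that cross genotype, treatment and sex. The genotypes were wild-type (WT) and a myeloid-specific knockout of Chrna7 (cKO), the gene of the alpha7 nicotinic acetylcholine receptor. The treatments were 4 injections of paclitaxel at 1 mg/kg, given every other day, or the Kolliphor, ethanol and water vehicle alone, and L4 to L6 tissue was collected on day 7, counted from the start of the injections. The labels name no Cre driver for the knockout, and their strain statement covers all mice.

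The respiratory chain passes electrons from NADH and succinate to oxygen and uses the energy to pump protons out of the mitochondrial matrix. Complex I takes electrons from NADH, complex III hands them to cytochrome c, complex IV reduces oxygen, and ATP synthase lets the protons flow back to make ATP. Except for complex II, each of these is built from a few subunits encoded in mitochondrial DNA and many more encoded in the nucleus, and neurons depend on it heavily. Impaired mitochondria in sensory neurons are a known feature of paclitaxel neuropathy in rodents. The 37 mitochondrially encoded rows were at 0 counts in every library of this table, so only the nuclear side could be followed.

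The promoters of these genes are known for sites of NRF1, the nuclear respiratory factor, and of GABP, an ETS family factor. A promoter was at hand for 63 of the 87 members in RefSeq (GRCm38.p6), among 27025 promoters, and the 250 bases before the gene start were searched. The letters GCGCA followed at once by their reverse complement TGCGC, a palindromic core of the NRF1 site that reads the same on both strands, were found in 4 member promoters (6.35%) and in 211 of all promoters (0.781%). The letters CCGGAAG, a core of ETS sites, searched on both strands, were found in 10 member promoters (15.9%) and in 1906 of all (7.05%). These 10 belong to Atp5e, Atp5h, Atp5l, Ndufb6, Ndufb7, Ndufs3, Uqcr11, Uqcrh, Cox6a1 and Cox6b1, so Cox6a1 held both. The 4 windows below show the NRF1 core in capitals with its neighbouring bases, because it is the element by which promoters of this family are best known. They are on the gene's strand of GRCm38, at chr15:102671065-102671104 (minus), chr5:108434425-108434464 (minus), chr17:56717687-56717726 (plus) and chr5:115349096-115349135 (minus).
Atp5g2: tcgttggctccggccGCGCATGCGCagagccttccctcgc
Atp5k: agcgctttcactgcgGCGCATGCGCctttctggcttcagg
Ndufa11: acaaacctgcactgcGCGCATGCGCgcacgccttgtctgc
Cox6a1: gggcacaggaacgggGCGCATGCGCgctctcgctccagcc
The last base of the core lay 33, 41, 51 and 153 bases before the annotated start of Atp5g2, Atp5k, Ndufa11 and Cox6a1. A match of letters is a description and was not measured as binding here.

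Totals ran from 88812295 to 112158154 counts per library, and members took 1.07 to 1.29% of them (median 1.14%) in 23 cords. One library, WT female paclitaxel replicate 3, had the profile of dorsal root ganglion and stands apart from all results below unless named. In it the sensory neuron channel gene Scn10a was at 817 CPM (counts scaled to a common library total, here with TMM factors) against at most 0.73 in the cords, and the astrocyte gene Gfap was at 44.9 CPM against 1015 to 1619. The group it belongs to therefore has 2 cords. Chrna7 itself was at 9.52 to 15.8 CPM (median 14.04) in 11 WT cords and at 9.05 to 14.3 CPM (median 13.01) in 12 cKO cords. The groups overlapped, and a deletion restricted to myeloid cells cannot be checked in RNA of whole cord. In such bulk RNA, fewer cells of a type and less RNA per cell cannot be told apart.

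Levels of different genes were set side by side in RPKM, reads per kilobase of summed exons scaled to the library total without TMM factors. Among the 73 general subunits, that is members without the tissue isoforms and the paralog rows, the median level differed by complex. It was 61.9 RPKM in complex I (lowest and highest cord 53.9 and 68.4, 36 genes) and 89.2 in complex III (83.1 to 105, 8 genes). It was 162 in complex IV (139 to 186, 12 genes) and 70.5 in ATP synthase (64.9 to 85.2, 17 genes). The range of complex IV over the cords lay above that of each other complex, while complex I and ATP synthase overlapped in range. The order of complex III and ATP synthase depended on the length used. Divided by the length of the principal coding transcript, a choice added after seeing the data, the medians were 93.9 for complex I, 139 for complex III, 265 for complex IV and 191 for ATP synthase.

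**Figure D1:**
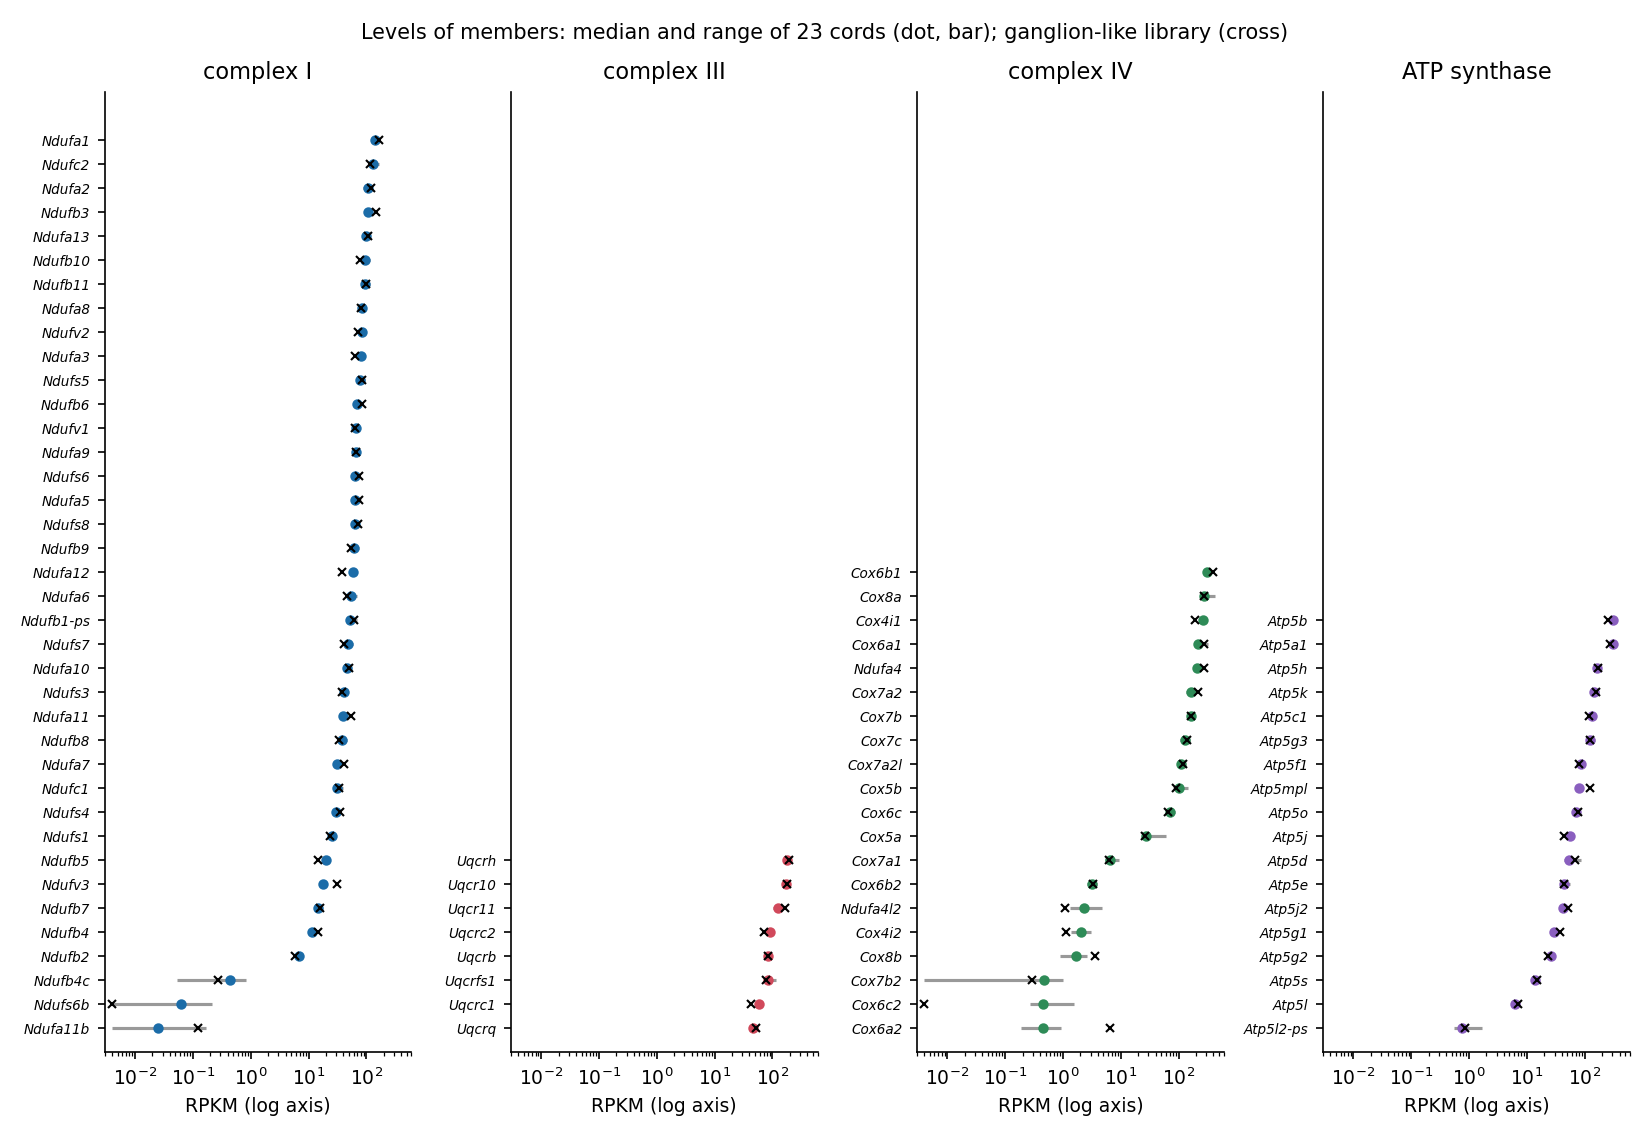
Levels of members with a median above 0 by complex, in RPKM on a log axis: dots are medians and bars ranges of 23 cords, crosses the ganglion-like library, and values of 0 are drawn at the left edge. General subunits lie between 6.25 RPKM (Atp5l) and 315 RPKM (Cox6b1), and tissue isoforms and paralog rows lie at the foot of complex I, complex IV and ATP synthase.

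The highest levels in RPKM belonged to complex IV and to the catalytic head of ATP synthase. Cox6b1, a subunit on the intermembrane side of complex IV, had a median of 315 RPKM (265 to 350). The beta and alpha subunits of the catalytic head, Atp5b and Atp5a1, were at 313 (269 to 346) and 309 (265 to 328). Cox8a followed at 273 (232 to 434), Cox4i1 at 267 (242 to 307), Cox6a1 at 214 (183 to 318) and Ndufa4 at 207 (178 to 233). The ranges of Cox6b1, Atp5b, Atp5a1, Cox8a and Cox4i1 overlapped, so their order is not set beyond the spread between cords. With the principal transcript length the first places went to Atp5b (693), Cox4i1 (541), Ndufa4 (469) and Uqcrh (409). Cox4i1, which binds ATP on complex IV, lies at chr8:120668222-120674207, and Ndufa4 at chr6:11900292-11907497 (GRCm38, GENCODE M21).

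Within complex I the 7 core subunits, which carry the flavin and the iron-sulfur clusters and bind NADH and ubiquinone, included Ndufs1 at 25.3 RPKM and Ndufv2 at 83.5 RPKM. Ndufs1 has 8086 bases of summed exons and a principal transcript of 2661, and Ndufv2 2147 and 1697, so this gap narrows over principal transcripts. The 29 accessory subunits, which surround that core, ranged from Ndufb2 at 6.96 to Ndufa1 at 140 RPKM (121 to 158). In complex III the small hinge protein gene Uqcrh was at 181 RPKM (158 to 211) and Uqcr10 at 174. The large core protein genes Uqcrc2 and Uqcrc1 were at 90.7 and 57.4 RPKM, and the Rieske iron-sulfur protein gene Uqcrfs1 was at 83.6. Uqcrc2 has 2552 bases of summed exons and a principal transcript of 1896, and Uqcrc1 4135 and 1653, so their order turns with the length used. In complex IV, Cox5a was the lowest of the general subunits at 27.2 RPKM (23.3 to 59.5). In ATP synthase, Atp5l was at 6.25 RPKM over a summed exon length of 6443 bases, but at 74.0 over its principal transcript. By summed exon length, subunits of one complex thus differed many times over in transcript level, although they enter the complex in fixed ratios. The size of such differences depends on the length used.

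The ring of c subunits through which protons pass is encoded by 3 genes whose mature proteins are known to be identical. Atp5g3 made up 69.2% of their summed RPKM (67.6 to 73.4), Atp5g1 16.5% (13.9 to 17.3) and Atp5g2 14.3% (12.7 to 15.1). With principal transcript lengths the shares were 80.6%, 6.63% and 12.7%. Atp5g3 led in every cord, whereas the order of the other two turned with the length used.

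Isoforms known from other tissues stood far below their general partners. Cox6a2, Cox7a1 and Cox8b are the heart and skeletal muscle isoforms of Cox6a1, Cox7a2 and Cox8a. Each isoform's share of the summed RPKM of isoform and partner was 0.212% (0.0940 to 0.365), 3.88% (3.40 to 5.41) and 0.617% (0.341 to 0.978). Cox4i2, the isoform of lung and of hypoxic cells, made up 0.735% of its sum with Cox4i1 (0.486 to 1.12). Ndufa4l2, a gene induced by hypoxia and known from pericytes, the contractile cells on capillaries, made up 1.09% of its sum with Ndufa4 (0.557 to 2.38). Cox6b2 and Cox7b2, known from testis, made up 1.04% and 0.289% of their sums with Cox6b1 and Cox7b. Cox8c had at most 2 counts in any library.

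Cox6a2 ran from 0.13 CPM in WT male vehicle replicate 3 to 0.63 in cKO male paclitaxel replicate 3, with a median of 0.307. In the 12 WT vehicle and cKO vehicle cords it was 0.127 to 0.525, and in the 11 paclitaxel cords 0.167 to 0.631, so treatments overlapped. Ndufa4l2 ran from 1.40 CPM (cKO male vehicle replicate 3) to 5.25 (cKO female paclitaxel replicate 1). In WT vehicle cords it was 2.27 to 3.24, in WT paclitaxel 2.20 to 3.36, in cKO vehicle 1.40 to 3.57 and in cKO paclitaxel 2.31 to 5.25, and all 4 ranges overlapped. Cox4i2 lay between 1.08 and 2.37 CPM and was highest in the same cord as Ndufa4l2.

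These 5 isoforms were correlated over the 23 cords with the mean log2(CPM + 1) of a marker list of the tissue they are known from, and p was taken from 100000 permutations, two-sided, adjusted over the 5 relations. Ndufa4l2 followed 7 markers of pericytes and mural cells (Pearson r = 0.83, adjusted permutation p = 5e-05, from the smallest p that the permutations can give). Its Spearman rho was 0.74 (adjusted permutation p = 0.00065), and r was 0.70 without the 2 cords farthest from the median of the list. Cox6a2 followed 11 markers of skeletal muscle (r = 0.62, adjusted permutation p = 0.00467, rho 0.51, adjusted permutation p = 0.035), with r = 0.53 without the 2 farthest cords. With a pseudocount of 0.1 CPM its rho was 0.46 and did not pass (adjusted permutation p = 0.0756). For Cox4i2 and the pericyte list r was 0.54 (adjusted permutation p = 0.0135) and rho 0.33 (adjusted permutation p = 0.203), and r fell to 0.17 without 2 cords, so that relation rests on them. Cox8b (r = 0.36, adjusted permutation p = 0.114, rho 0.23, adjusted permutation p = 0.28) and Cox7a1 (r = 0.29, adjusted permutation p = 0.184, rho 0.24, adjusted permutation p = 0.28) did not pass. The summed muscle list was 93.7 to 160 CPM in the cords, most of it Pvalb (87.3 to 127 CPM), which spinal neurons also express. The other muscle markers were low, with Acta1 at 0.306 to 7.90 CPM and Tnnc2 at 0 in the median cord.

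The members varied between cords more than genes in general. Among 73 members with a median of at least 20 CPM the median coefficient of variation was 7.16%, against 5.99% over the 8588 tested genes of that level. Cox5a (28.4%), Cox8a (21.6%), Atp5d (17.4%), Cox6a1 (15.6%) and Cox5b (14.3%) varied most, and this choice of 5 was made after their values were seen. Cox8a was at 198 to 273 CPM in 6 cords and at 144 to 188 in the other 17. Cox6a1 had the same 6 cords at its top, at 177 to 227 CPM against 129 to 164 in the rest, and Atp5d and Cox5b shared 5 of them and Cox5a 4. These 6 cords were WT male paclitaxel replicates 2 and 3, WT male vehicle replicate 2, WT female paclitaxel replicate 1, cKO female vehicle replicate 2 and cKO male paclitaxel replicate 3. They thus come from both genotypes, both treatments and both sexes, and no label of a batch was given to set beside them. Median GC content of the transcripts of these 5 genes was 58.6%, with Cox5a lowest at 44.4%, against 50.2% for the other 68 members of that level, and its part in the pattern was not tested.

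**Figure D2:**
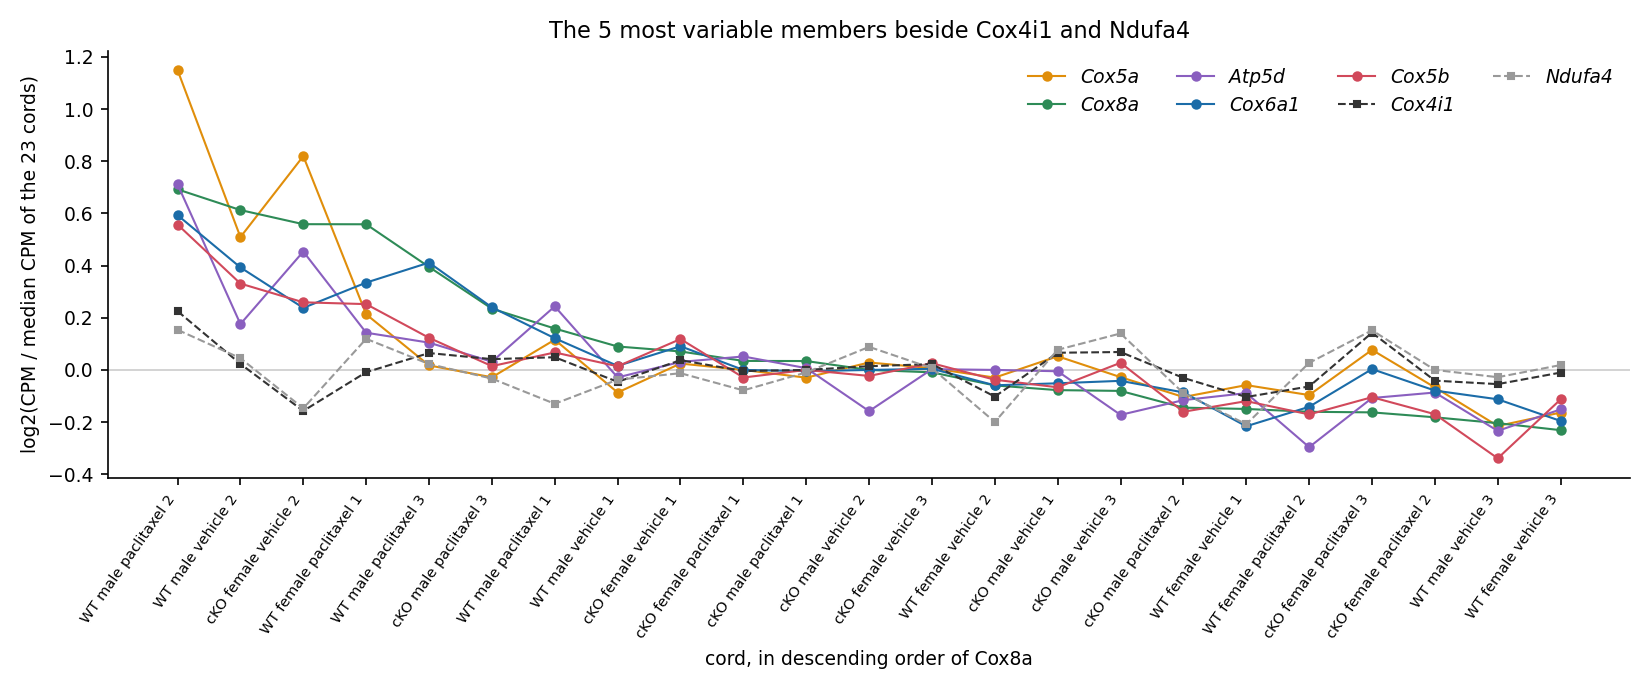
The 5 most variable members and, dashed, Cox4i1 and Ndufa4 in each of 23 cords, as log2 of CPM over the gene's median, with cords in descending order of Cox8a. Cox8a reaches 273 CPM in WT male paclitaxel replicate 2 and 144 CPM in WT female vehicle replicate 3, and Cox6a1 is highest in the same 6 cords.

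The promoters of 3 genes that moved together in these cords are shown for comparison, each as the 250 bases before the RefSeq start on the gene's strand of GRCm38. They lie at chr19:7217617-7217866 (minus), chr5:115348959-115349208 (minus) and chr1:36691237-36691486 (plus), with the NRF1 core and the ETS core in capitals.
Cox8a: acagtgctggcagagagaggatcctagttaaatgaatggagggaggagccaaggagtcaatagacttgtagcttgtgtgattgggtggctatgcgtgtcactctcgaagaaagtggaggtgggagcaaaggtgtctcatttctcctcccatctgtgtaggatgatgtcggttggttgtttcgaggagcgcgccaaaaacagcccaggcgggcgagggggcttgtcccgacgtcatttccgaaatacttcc
Cox6a1: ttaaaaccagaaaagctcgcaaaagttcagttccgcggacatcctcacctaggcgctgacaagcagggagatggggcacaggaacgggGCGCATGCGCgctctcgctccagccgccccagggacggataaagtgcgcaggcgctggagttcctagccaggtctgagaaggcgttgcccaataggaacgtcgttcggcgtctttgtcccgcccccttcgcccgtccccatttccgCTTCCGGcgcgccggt
Cox5b: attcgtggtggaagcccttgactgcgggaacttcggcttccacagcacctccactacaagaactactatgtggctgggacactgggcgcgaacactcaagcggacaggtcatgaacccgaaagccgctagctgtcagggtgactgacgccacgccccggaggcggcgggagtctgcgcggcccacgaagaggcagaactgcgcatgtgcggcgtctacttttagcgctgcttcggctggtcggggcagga
Cox6a1 held both cores, and neither was found in these windows of Cox8a and Cox5b. The letters that these 2 motifs spell were therefore not shared by the 3 genes within this window.

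The first comparison of the design asked what paclitaxel did to these transcripts. Of the 87 members 83 passed the filter on low counts and were tested with edgeR's quasi-likelihood test. The other 4, Atp5c1-ps, Ndufa11b, Ndufs6b and Cox8c, had at most 6, 8, 7 and 2 counts in any library. Over all cords 0 of 83 members had an adjusted p under 0.05, and 5 of 25372 genes did (0.0197%). Members leaned upward by a small amount: 78 of 83 had a positive log2 fold change with a median of 0.04, where 52.9% of all genes were positive with a median of 0.01. An unadjusted p under 0.05 was reached by 5 members and by 10.2% of all genes. The median of the members was 0.02 without WT male paclitaxel replicate 2, and also 0.02 with a length trend removed.

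The smallest p belonged to Ndufs7, a core subunit of complex I that holds the iron-sulfur cluster next to ubiquinone. In WT vehicle cords it was at 74.7, 74.8 and 76.3 CPM in females and 78.2, 81.8 and 78.1 in males. In WT paclitaxel cords it was at 75.2 and 76.4 in females and 85.2, 104 and 87.4 in males. In cKO vehicle cords it was at 79.4, 81.3 and 82.9 in females and 82.6, 76.1 and 72.2 in males, and in cKO paclitaxel cords at 82.9, 83.3 and 88.4 in females and 82.6, 77.6 and 86.2 in males. The 3 WT males given paclitaxel were above all other WT cords, and over both genotypes the treatments overlapped. The share of all genes with such a separation in WT was not counted. The mean was 84.5 ± 7.91 CPM (SD, n = 11) with paclitaxel and 78.2 ± 3.48 (SD, n = 12) with vehicle. The log2 fold change of 0.10 (SE 0.0314) did not pass in edgeR (adjusted p = 0.259). Ndufa8, Atp5g3 and Ndufc1 were also among the 5 smallest p, with log2 fold changes of 0.08, 0.08 and 0.09 and edgeR adjusted p from 0.378 to 0.451.

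Neither of the best known subunits changed by the test. Ndufa4 was at 248, 250 and 291 CPM in WT vehicle females and 280, 296 and 281 in WT vehicle males. With paclitaxel it was at 312 and 292 in WT females and 262, 319 and 291 in WT males. In cKO cords it was at 284, 259 and 288 (females) and 303, 305 and 316 (males) with vehicle, and at 272, 287 and 319 (females) and 285, 270 and 280 (males) with paclitaxel. The WT female paclitaxel cords stood above the WT female vehicle cords, and in males of both genotypes the treatments overlapped or paclitaxel was lower. Cox4i1 was at 385, 385 and 410 CPM in WT vehicle females, 400, 420 and 398 in WT vehicle males, 411 and 396 in WT paclitaxel females and 428, 483 and 432 in WT paclitaxel males. In cKO cords Cox4i1 was at 424, 371 and 420 (females) and 433, 417 and 434 (males) with vehicle, and at 412, 402 and 456 (females) and 413, 405 and 425 (males) with paclitaxel. Its 3 WT male paclitaxel cords lay above the 3 WT male vehicle cords, and its cKO cords overlapped. For groups of so few cords the share of all genes separated like this was not counted.

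In WT cords alone the upward lean was larger, but still no member was called in the main fit. On filtered counts none of 83 members passed with edgeR, DESeq2 or limma voom, and edgeR called 0 of 25372 genes (0.00%). Without the filter on low counts edgeR called 9 of 87 members, all higher, and 0.608% of all genes. At an unadjusted p under 0.05 there were 25 members, where 7.97% of all genes (2021) reached it. Positive values were found for 72 of 83 members with a median log2 fold change of 0.09, against 51.9% of all genes with a median of 0.01. All complexes shared it, with medians of 0.08 in complex I (33 of 37 positive), 0.09 in complex III (7 of 8), 0.11 in complex IV (17 of 20) and 0.07 in ATP synthase (15 of 18). Ndufa1, Ndufs5, Ndufc1, Ndufb9 and Ndufa2, all accessory subunits of complex I, had the smallest p, with log2 fold changes of 0.14, 0.15, 0.17, 0.14 and 0.16 (edgeR adjusted p = 0.528 for each). The size of the median rested in part on one mouse: it was 0.05 without WT male paclitaxel replicate 2, the cord where members stood highest (0.23 on the log2 scale above their median), and 0.13 without WT male paclitaxel replicate 1.

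Another set of short, abundant transcripts moved by a similar amount in the same comparison. Of 86 tested cytosolic ribosomal protein genes 81 were positive in WT, with a median of 0.09 and 0 called. Of 77 mitochondrial ribosomal protein genes 64 were positive with a median of 0.06, and of 14 tested regulators of mitochondrial biogenesis 6 were positive with a median of -0.01. The members with the shortest principal transcripts (28 of up to 659 bases) had a median of 0.11, the 25 of middle length 0.10 and the 26 above 1005 bases 0.05. With a trend on gene length taken out per library the median of all members was 0.03, with 8 members at an unadjusted p under 0.05. Whether length has a part in the lean was not tested beyond this.

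In cKO cords members showed no such lean. None of 83 was called (6 of 25372 genes, 0.0236%), 36 were positive, and the median was -0.01 against 0.00 for all genes. Unadjusted, 4 members had p under 0.05, against 11.3% of all genes. Ndufv1 and Atp5a1 had the smallest p, with log2 fold changes of 0.10 each (edgeR adjusted p = 0.324 and 0.371), followed by Ndufa11 at 0.11, the pseudogene row Cox6c2 at -0.83 and Ndufa4l2 at 0.36 (adjusted p from 0.435 to 0.476). Without cKO female paclitaxel replicate 1 the median turned to 0.01.

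The difference between the genotypes in the response to paclitaxel was tested directly as an interaction. On filtered counts no member was called with edgeR, DESeq2 or limma voom, and edgeR called 0 of 25372 genes (0.00%). Without the filter on low counts edgeR called 10 of 87 members, all lower, and 0.875% of all genes. Only 22 of 83 members were positive, that is responded more in cKO than in WT, with a median of -0.10, where 48.3% of all genes were positive with a median of -0.01. Unadjusted p lay under 0.05 for 21 members, against 8.41% of all genes (2134). The medians by complex ran from -0.09 in ATP synthase to -0.13 in complex IV. Of the general subunits of complex IV without the assembly gene Cox7a2l, 0 of 11 were positive. The smallest p belonged to Cox6c2 (-1.84), Ndufa1 (-0.18), Ndufb1-ps (-0.28), Ndufs5 (-0.18) and Ndufv2 (-0.20), with edgeR adjusted p = 0.512 for each. Cox6c2 is a pseudogene row near the floor, with at most 34 counts, in WT male paclitaxel replicate 2. Ndufb1-ps, placed here with the accessory subunits of complex I, is not typed as protein-coding in GENCODE M21. The cytosolic ribosomal protein genes had a median of -0.13 here (9 of 86 positive). Without WT male paclitaxel replicate 2 the median of the members was -0.06, and with a length trend removed it was -0.05, with 12 members at an unadjusted p under 0.05.

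**Figure D3:**
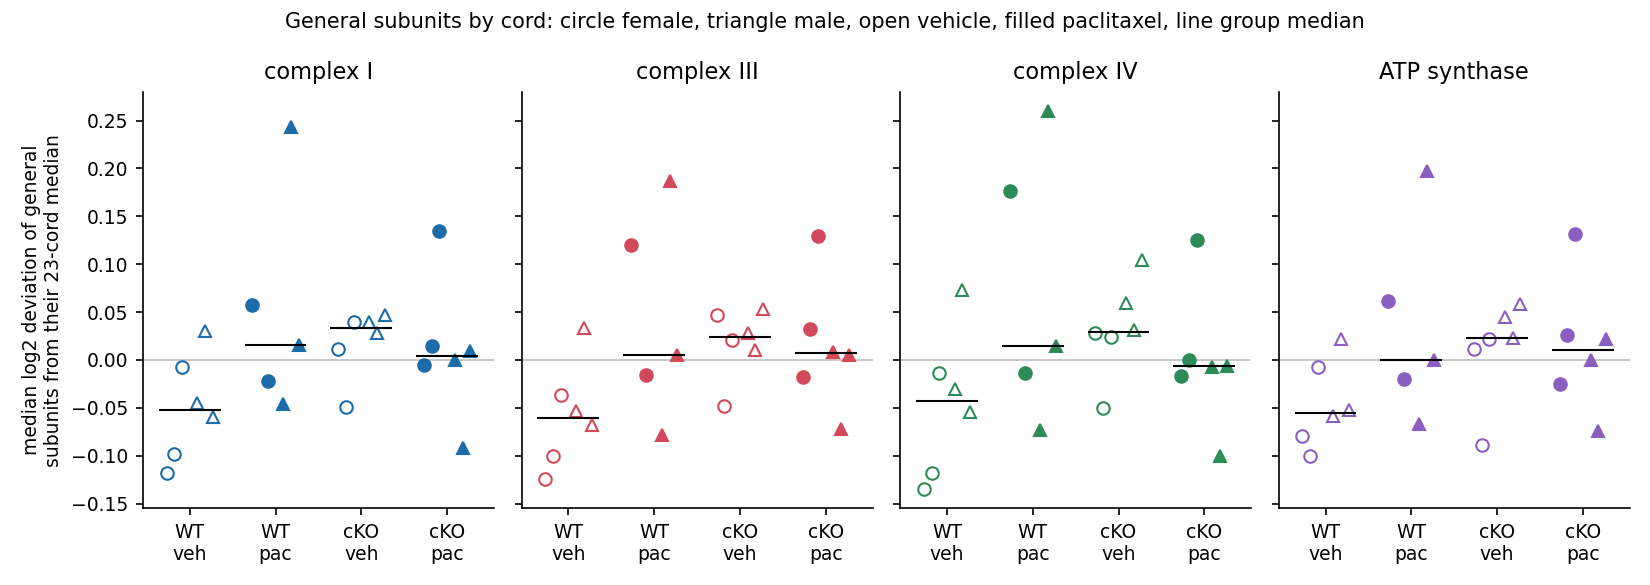
For each of 23 cords, the median log2 deviation of the general subunits of a complex from their own median over the cords, by genotype and treatment; circles are females, triangles males, filled symbols paclitaxel, and lines group medians. WT vehicle cords centre lowest, at -0.05 over all general subunits, WT paclitaxel at 0.01, cKO vehicle at 0.02 and cKO paclitaxel at 0.00, and all 4 groups overlap.

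The next comparison asked what the Chrna7 knockout did. Over both treatments 0 of 83 members were called and 3 of 25372 genes (0.0118%). The median was 0.02 with 66 members positive, against 0.00 and 49.5% over all genes, and 0 members reached an unadjusted p under 0.05, which 3.36% of all genes did. That median was 0.00 without WT male paclitaxel replicate 1 and 0.04 without replicate 2. Ndufa10, an accessory subunit of complex I, had the smallest p. It was at 155, 160 and 146 CPM in WT vehicle females, 147, 151 and 142 in WT vehicle males, 140 and 136 in WT paclitaxel females and 166, 170 and 149 in WT paclitaxel males. In cKO cords it was at 164, 153 and 159 (females) and 160, 145 and 135 (males) with vehicle, and at 168, 152 and 163 (females) and 153, 153 and 164 (males) with paclitaxel. Its mean was 156 ± 9.24 CPM (SD, n = 12) in cKO and 151 ± 10.7 (SD, n = 11) in WT, and the genotypes overlapped (log2 difference 0.06, SE 0.0304, edgeR adjusted p = 1).

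Under vehicle 0 of 83 members were called (2 of 25372 genes, 0.00788%), and 67 were positive with a median of 0.06, against 51.3% and 0.00 over all genes. Unadjusted, 12 members had p under 0.05, against 5.20% of all genes. With a length trend removed the median was 0.04, with 5 members under 0.05. Ndufs5 and Ndufb11, accessory subunits of complex I, were the only 2 members whose genotypes did not overlap under vehicle, where 0.169% of all genes had no overlap. Ndufs5 was at 59.9 to 65.7 CPM in 6 WT cords and 67.7 to 71.3 in 6 cKO cords (log2 difference 0.13, SE 0.0473, edgeR adjusted p = 0.911). Ndufb11 was at 75.5 to 85.0 CPM in WT and 85.8 to 97.8 in cKO (0.15, SE 0.0564, edgeR adjusted p = 0.911). Uqcr10, Ndufa1 and Cox7c followed at 0.12, 0.11 and 0.15 with the same adjusted p.

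Under paclitaxel 0 of 83 members were called (1 of 25372 genes, 0.00394%), 27 were positive, and the median was -0.03, against 49.0% and 0.00 over all genes. The count at an unadjusted p under 0.05 was 4 members, against 6.18% of all genes. Cox8a was at 166 ± 19.3 CPM (SD, n = 6) in cKO and 216 ± 48.2 (SD, n = 5) in WT, a log2 difference of -0.36 (SE 0.162) with edgeR adjusted p = 0.802. Cox6a1 was at 152 ± 13.1 CPM (SD, n = 6) against 183 ± 34.7 (SD, n = 5), with -0.24 (SE 0.107, edgeR adjusted p = 0.802), and 3 of the 6 cords with the highest Cox8a are among these 5 WT cords. Cox6c2 at -0.97, and Ndufv1 and Atp5a1 at 0.09 each, completed the 5 smallest p (adjusted p from 0.790 to 0.804). The median of the members was 0.01 without WT male paclitaxel replicate 2 and 0.00 with a length trend removed. The comparisons of cKO with WT and of paclitaxel with vehicle share libraries and are not independent of each other.

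Males and females did not differ in these genes by the test: 0 of 83 members were called, where 233 of 25372 genes were (0.918%). At an unadjusted p under 0.05 there were 2 members, against 13.2% of all genes. The median was 0.01 with 53 positive, against 0.00 and 51.7% over all genes. That median was -0.01 without WT male paclitaxel replicate 2, 0.03 without WT male paclitaxel replicate 1 and 0.00 with a length trend removed. Ndufs3 (0.07, edgeR adjusted p = 0.345), Cox4i1 (0.06, 0.375), Ndufb9 (0.07, 0.388), Ndufb2 (-0.07, 0.425) and Ndufs7 (0.06, 0.425) had the smallest p. Of the 3 members on chromosome X, Ndufa1, Ndufb11 and Cox7b, none was called.

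Of the comparisons planned, members were called in the interaction of sex and treatment, in which the paclitaxel effect in females is subtracted from the effect in males. With edgeR 6 of 83 members passed, 2 higher and 4 lower, where 1259 of 25372 genes did (4.96%), so the share of members is close to that of all genes. Uqcrc1 (0.24, SE 0.0580, edgeR adjusted p = 0.0216) and Atp5a1 (0.21, SE 0.0599, edgeR adjusted p = 0.0368) responded more in males. Ndufs4 (-0.23, SE 0.0610, adjusted p = 0.0275), Uqcrh (-0.26, SE 0.0690, adjusted p = 0.0316), Ndufa1 (-0.23, SE 0.0641, adjusted p = 0.0361) and Cox7a2 (-0.27, SE 0.0754, adjusted p = 0.0370) responded more in females. Over all members 22 had an unadjusted p under 0.05, against 20.3% of all genes, and 27 were positive with a median of -0.06, against 49.3% and -0.01 over all genes. Without WT male paclitaxel replicate 2 that median was -0.10.

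Uqcrc1, a core protein of complex III at chr9:108936633-108949623, was at 235, 242 and 226 CPM in WT and 254, 236 and 247 in cKO vehicle females, and at 218 and 214 in WT and 245, 233 and 248 in cKO paclitaxel females. In males it was at 231, 236 and 230 (WT) and 246, 214 and 201 (cKO) with vehicle, and at 261, 268 and 254 (WT) and 250, 235 and 257 (cKO) with paclitaxel. All 3 WT males given paclitaxel exceeded the WT vehicle males, while both WT females given paclitaxel lay below the WT vehicle females. Means were 254 ± 11.3 CPM (SD, n = 6) against 226 ± 16.2 (SD, n = 6) in males and 232 ± 15.4 (SD, n = 5) against 240 ± 9.78 (SD, n = 6) in females. Over both genotypes the treatments overlapped in each sex, and the share of all genes that separated in the few WT cords of a sex was not counted.

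Atp5a1, the alpha subunit of the catalytic head on chromosome 18, was at 1000 ± 33.9 CPM (SD, n = 6) with paclitaxel and 906 ± 55.01 (SD, n = 6) with vehicle in males, and at 931 ± 71.9 (SD, n = 5) and 963 ± 48.6 (SD, n = 6) in females. Its paclitaxel cords were at 1048, 1022 and 960 (WT males), 985, 970 and 1018 (cKO males), 842 and 866 (WT females) and 998, 973 and 978 (cKO females). Its vehicle cords were at 914, 917 and 915 (WT males), 986, 888 and 816 (cKO males), 1011, 984 and 931 (WT females) and 981, 879 and 990 (cKO females). In WT males the paclitaxel cords lay above the vehicle cords, and in WT females they lay below them. Groups of so few cords can separate without an effect, and the share of all genes that did was not counted. Over both genotypes the treatments overlapped in males and in females.

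Ndufs4, an accessory subunit whose loss in mice gives the Leigh syndrome model, lies at chr13:114287795-114388258. It was at 84.9 ± 4.90 CPM (SD, n = 5) with paclitaxel and 76.8 ± 3.11 (SD, n = 6) with vehicle in females, and at 78.3 ± 4.27 and 82.9 ± 4.18 (SD, n = 6 each) in males. Uqcrh, the hinge protein of complex III at chr4:116066965-116075071, was at 238 ± 11.6 against 213 ± 16.3 CPM in females and 217 ± 13.9 against 232 ± 15.7 in males, with the same n. Ndufa1 at chrX:37187588-37191163 was at 62.3 ± 3.16 against 55.4 ± 3.65 CPM in females and 58.1 ± 4.35 against 60.5 ± 3.38 in males. Cox7a2, a small subunit of complex IV at chr9:79755361-79759878, was at 160 ± 10.7 against 144 ± 11.9 CPM in females and 146 ± 9.93 against 158 ± 8.22 in males. In all 4 genes females were higher and males lower with paclitaxel on average, and the treatments overlapped in each sex.

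**Figure D4:**
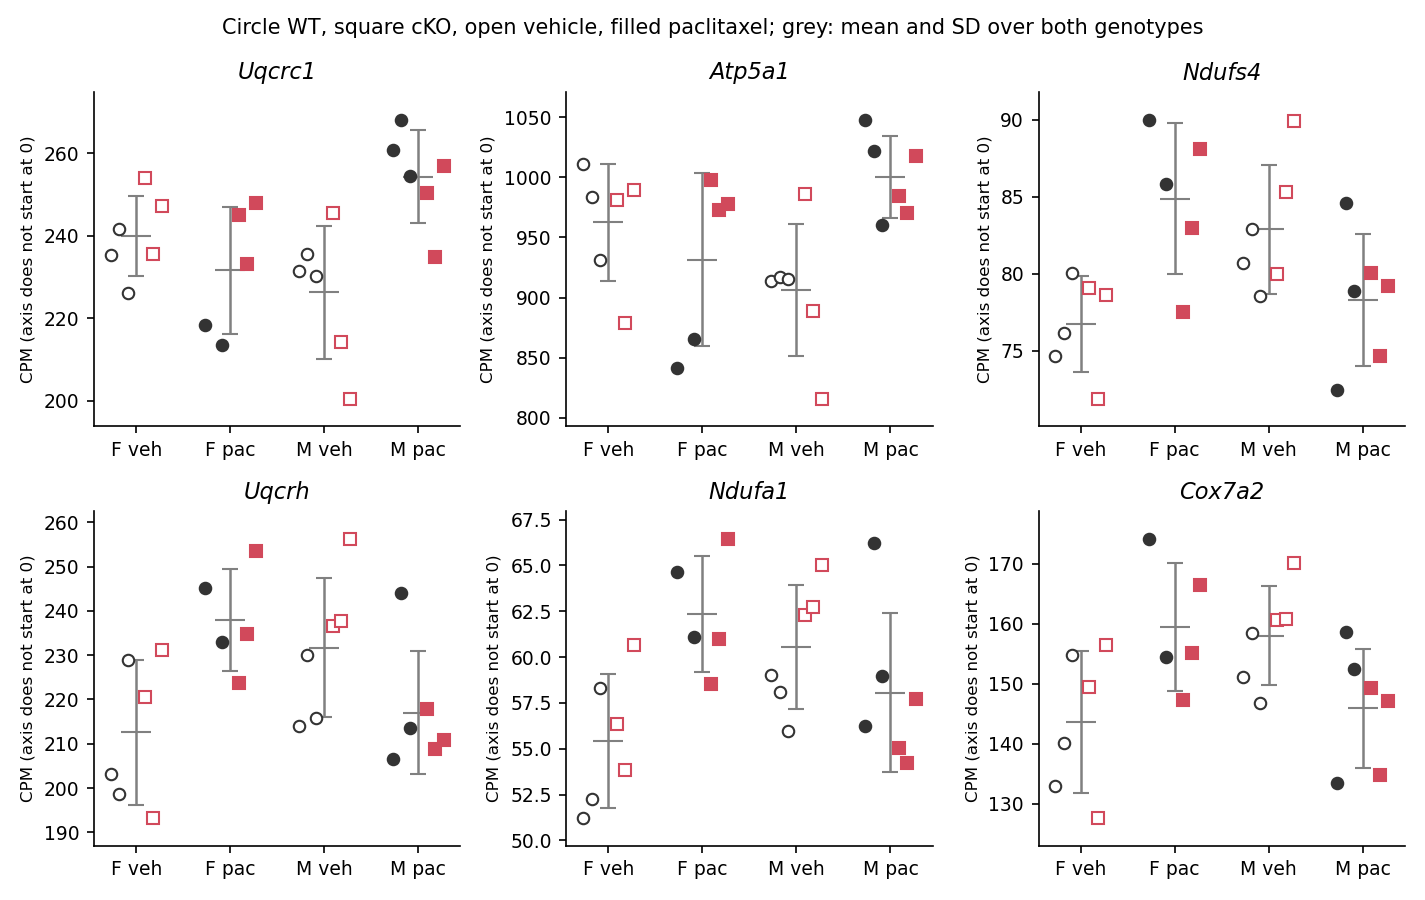
CPM with TMM factors of the 6 members called for the interaction of sex and treatment, in every cord, by sex and treatment; circles are WT, squares cKO, filled symbols paclitaxel, grey marks mean and SD over both genotypes, and the axes do not start at 0. Uqcrc1 and Atp5a1 are higher with paclitaxel in males, and Ndufs4, Uqcrh, Ndufa1 and Cox7a2 are higher with paclitaxel in females.

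Within each sex, a split added after seeing the data, 5 of 83 members rose with paclitaxel in males. There 1698 of 25372 genes were called (6.69%), so the share of members is close to that of all genes. The 5 were Uqcrc1 (0.17, edgeR adjusted p = 0.0133), Ndufs7 (0.16, 0.0275), Atp5a1 (0.14, 0.0333), the accessory subunit Ndufa8 (0.14, 0.0349) and Ndufv1 (0.12, 0.0444), the flavin subunit that binds NADH. The median over 83 members in males was 0.00 with 42 positive, against 0.01 and 51.4% over all genes. In females 0 members were called (1 of 25372 genes, 0.00394%), 66 were positive, and the median was 0.06, against 50.7% and 0.00 over all genes. That median was 0.03 without WT female paclitaxel replicate 1, 0.10 without replicate 2, and 0.04 with a length trend removed. At an unadjusted p under 0.05 there were 20 members in females, against 9.37% of all genes. In females Ndufa1 (0.17), Ndufs4 (0.15), Uqcrh (0.16) and Cox7a2 (0.16) had edgeR adjusted p of 0.268, 0.288, 0.320 and 0.369, and in males -0.06, -0.08, -0.09 and -0.11 with 0.483, 0.267, 0.260 and 0.204. For these 4 only the difference between the sexes passed, not the change within either sex.

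By role, the lists of core and head subunits and the lists of accessory, stalk and membrane subunits had medians of opposite sign in the interaction of sex and treatment. The core and head lists hold only 7, 3 and 5 genes, among them the called Uqcrc1 and Atp5a1. The core of complex I had a median of 0.10 (5 of 7 positive), the core of complex III 0.11 (2 of 3) and the catalytic head of ATP synthase 0.18 (3 of 5). The accessory subunits of complex I had a median of -0.09 (5 of 29 positive), those of complex III -0.16 (1 of 5), and the stalk and membrane subunits of ATP synthase -0.18 (0 of 8). The general subunits of complex IV without Cox7a2l were at -0.14 (4 of 11). These roles differ in transcript length: the 28 members with the shortest transcripts had a median of -0.15, the 25 of middle length -0.05 and the 26 longest -0.01. With a length trend removed 5 members passed (5.58% of all genes did) and the median of all members was -0.05. With a length and a GC trend removed, added after seeing the data, 2 members passed (3.01% of all genes did).

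**Figure D5:**
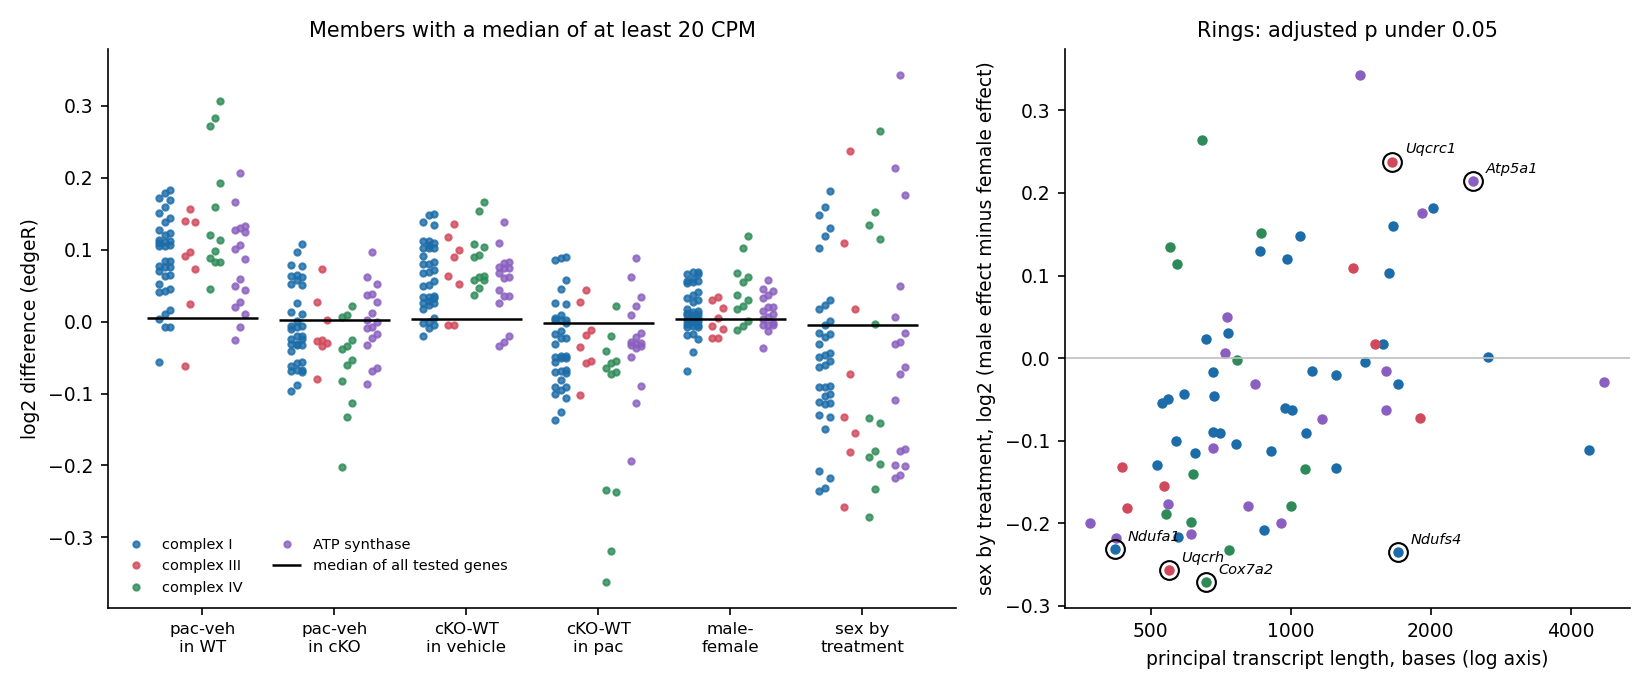
Left, log2 differences of members with a median of at least 20 CPM in 6 contrasts, by complex, with a line at the median of all tested genes. Right, the interaction of sex and treatment against principal transcript length on a log axis, with rings on the 6 members with adjusted p under 0.05: Ndufa1, Uqcrh and Cox7a2 have short transcripts and lie below 0, as does Ndufs4, while Uqcrc1 and Atp5a1 have longer ones and lie above 0.

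Outside the members, the same interaction called 1 of 39 tested assembly factors (Ndufaf4, -0.25, edgeR adjusted p = 0.0289), 0 of 4 complex II subunits and 0 of 3 cytochromes c and carrier protein genes. It called 1 of 11 enzymes of the citric acid cycle (Cs, citrate synthase, 0.26, adjusted p = 0.0417) and 1 of 6 genes of exchange across the mitochondrial membranes (Vdac2, 0.20, adjusted p = 0.0333). Of the cytosolic ribosomal protein genes 1 was higher and 9 lower (median -0.16), and of the mitochondrial ones 1 was higher and 2 lower (median 0.00). The lists of cell type markers were small, and 4.96% of all genes were called in this interaction. Skeletal muscle had 1 of 10 tested markers called (Acta1), 9 positive and a median of 2.78, and endothelial cells had 0 of 5 called, 5 positive and a median of 0.47. Pericytes had 1 of 7 called (Notch3), 6 positive and a median of 0.32, and neurons had 2 of 7 called (Rbfox3 and Gad1), 6 positive and a median of 0.22. Astrocytes and microglia had 1 of 5 called each (Aldh1l1 and Cx3cr1), 3 positive and medians of 0.20 and 0.20. Oligodendrocytes had 1 of 5 called (Mag, 0.28), but only 2 were positive and the median was -0.03. Of 9 ganglion neuron markers 1 was called (Tlx3), 4 were positive and the median was -0.02. For paclitaxel in males, muscle markers had a median of 1.69 (10 of 10 positive, 0 called) and endothelial markers 0.44 (5 of 5 positive, 2 called). The summed neuron list was 4644 to 5312 CPM in vehicle females, 4896 to 5018 in paclitaxel females, 4726 to 5115 in vehicle males and 4868 to 5256 in paclitaxel males. The summed muscle list was 93.7 to 130, 105 to 125, 101 to 114 and 95.8 to 160 CPM in the same order, and most of that sum is Pvalb. The part of cell type markers in the result was not tested.

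The call depended on single libraries. With the ganglion-like library put back, 0 members passed and 0 of 24725 genes. Leaving out a cord left 0 members without WT female paclitaxel replicate 1 and 1 each without WT female vehicle replicate 1 or 2, cKO female paclitaxel replicate 3 or cKO male vehicle replicate 3. It left 2 each without WT female paclitaxel replicate 2, WT male paclitaxel replicate 1, WT male vehicle replicate 2 or cKO female paclitaxel replicate 2. It left 3 each without cKO female vehicle replicate 1, cKO male paclitaxel replicate 3 or cKO male vehicle replicate 2, and 16 without WT male paclitaxel replicate 2. Uqcrc1 passed in 21 of these 23 fits, Ndufs4 in 18, Uqcrh in 13, Cox7a2 in 11, Ndufa1 in 9 and Atp5a1 in 7. The rise in males was called for 0 members with the ganglion-like library put back, and for 0 without cKO male paclitaxel replicate 3 or cKO male vehicle replicate 3. It was called for 1 each without cKO male paclitaxel replicate 1, WT male vehicle replicate 1 or 3 or cKO male vehicle replicate 2. It was called for 2 each without WT male paclitaxel replicate 2 or WT female paclitaxel replicate 1 or 2, and for 3 each without WT male paclitaxel replicate 1, cKO male paclitaxel replicate 2, WT male vehicle replicate 2 or cKO female paclitaxel replicate 2. It was called for 8 each without WT male paclitaxel replicate 3 or cKO male vehicle replicate 1.

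The ganglion-like library holds the same genes in a sample rich in sensory neuron markers, with 1 library and no test. In CPM without TMM factors, 15 of the 73 general subunits were above the range of the 23 cords, 19 below and 39 within. Complex I had 7 above and 12 below of 36, complex III 1 and 2 of 8, complex IV 3 and 1 of 12, and ATP synthase 4 and 4 of 17. The median log2 difference from the median cord was 0.05 in that unit, so the picture depends on the scaling. With TMM factors the median log2 deviation was 0.14, above every cord but WT male paclitaxel replicate 2 (0.23). Both leading genes lay outside the range in opposite directions: Cox4i1 was at 194 RPKM, below the lowest cord, and Ndufa4 at 273 RPKM, above the highest. The median levels by complex were 62.5 RPKM in complex I, 81.1 in complex III, 180 in complex IV and 75.9 in ATP synthase. The muscle isoform Cox6a2 was at 4.76 CPM, or 2.33% of its summed RPKM with Cox6a1, and Cox8b made up 1.30% of its sum with Cox8a. Ndufa4l2 made up 0.391% of its sum with Ndufa4, below all cords. The summed muscle list was at 722 CPM there (Acta1 70.4 CPM) and the summed pericyte list at 309 CPM, within its range in the cords (280 to 413), most of it Rgs5 (223 CPM). Of its 7 genes 5 lay below the lowest cord: Kcnj8, Abcc9, Notch3, Higd1b and Vtn. Higd1b was at 0.748 CPM against 3.14 in the lowest cord. The part of these markers in the levels of Cox6a2 and Ndufa4l2 was not tested in this library.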

How the data were processed

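RNA of 24 mouse lumbar cords was sequenced on a NovaSeq, per the labels' protocols. The deposited values are raw counts per gene name, without normalization by the authors: STAR alignment and featureCounts 1.6.2 per the submitters' processing notes, with the STAR version not given in the sources used here. Exons of the Ensembl GRCm38 release 96 annotation were summed by gene name, without strand, per the file headers. Reads with several places were not counted, so members with near-identical pseudogenes are uncertain, as are genes overlapping on the other strand. No option for read pairs was set, per the file headers, so totals may count both mates: of the genes with 1 to 20 counts, 34.4 to 37.3% had an odd number.

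Members and lists were chosen with earlier results of these data known. Rows kept by filterByExpr over 8 groups in 23 libraries (25372) were scaled by TMM and fitted with edgeR 4.0.16 quasi-likelihood models (robust) in R 4.3.3, on means of the 8 groups, with Benjamini-Hochberg adjustment over all tested genes and a threshold of 0.05. The ganglion-like library was left out because the choice of members sets it apart. Alternatives were all 24 libraries, RLE scaling, no filter, DESeq2 1.42.0, limma voom (3.58.1), the replicate number as a block, a length trend removed by lowess, and each library left out. The edgeR, DESeq2, limma voom and trend-removed fits were tested on simulated data, only for paclitaxel against vehicle over all cords. The other alternatives and comparisons were not tested so. Named for differences are called members or, below 5 called, those with the 5 smallest p, and 1 member is not reported here by name. Each library is 1 mouse by its labels, so p measures spread between mice and libraries. Genes, transcripts and their lengths and GC are from GENCODE M21, promoters from RefSeq (GRCm38.p6). Depth limits mainly the low isoforms and pseudogene rows.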

Additional observations from a re-analysis of the deposited data

Results flagged for a closer look

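In a group of 6 or fewer cords a single library can stand far from the rest. Over 17 genes and the summaries given per library, 88 groups were examined and 8 such cases found. Chance gives about 1 in 20 groups if these are independent, which they are not. The summary over all general subunits holds those by complex, and several cases come from the same cord. In cKO vehicle females and males, cKO female vehicle replicate 2 stood low, with log2 deviations of -0.0488 for complex I, -0.0887 for ATP synthase and -0.0636 over all general subunits. The same cord was lowest for Cox4i1 (370.7 CPM), yet among the 6 highest for Cox8a. Ndufa4 was at 318.7 CPM in cKO female paclitaxel replicate 3. Ndufa4l2 was at 3.235 CPM in WT female vehicle replicate 2 and at 5.255 CPM in cKO female paclitaxel replicate 1, and Cox7b2 at 0.5341 CPM in cKO female vehicle replicate 3.

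The response to paclitaxel differed between males and females, by the edgeR test of the interaction, for Uqcrc1 (0.238), Atp5a1 (0.214), Ndufs4 (-0.235), Uqcrh (-0.257), Ndufa1 (-0.231) and Cox7a2 (-0.272 on the log2 scale). In the ganglion-like library, outside the comparisons, Cox6a2 was at 4.76 CPM, above the highest cord.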

How the results depend on the processing

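No called value changed sign under any alternative run. Without the filter on low counts edgeR called more members, of 87 in that fit, given here with the share of all genes called. For paclitaxel it called 1 over all cords (0.808%), 9 in WT (0.608%) and 1 in cKO (1.12%). For the knockout it called 1 over all cords (0.237%) and 5 under paclitaxel (0.514%). It called 10 for the interaction of genotype and treatment (0.875%), 2 between the sexes (1.79%) and 18 for sex and treatment (5.22%). For paclitaxel by sex it called 11 in males (5.55%) and 5 in females (0.887%). The cause of these larger counts was not tested. For the knockout under paclitaxel, at nearly the same fold changes, edgeR adjusted p moved from 0.802 to 2.7e-13 for Cox8a. For Cox6a1 it moved from 0.802 to 5.31e-05. For sex and treatment 11 members were called with DESeq2 (9.36% of all genes), 10 with the replicate block (7.45%) and 2 with length and GC trends removed (3.01%). RLE scaling and voom called 6 each (4.93% and 4.46%), and the fit with all 24 libraries called 0 (0.00%). Leaving out a library of any group but WT female paclitaxel gave 1 to 16. For males the count was 0 with all 24 libraries (0.00% of all genes), 2 with the length trend removed (6.12%) and 0 with length and GC removed (1.93%). It was 0 to 8 when each library was left out. Where WT female paclitaxel keeps 1 library, it is assumed to vary like the other groups.

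Same-numbered libraries of different groups did not deviate together (77 pairs, median r 0.00, 0 over 0.1). This measure showed no pairing by replicate number but cannot exclude one. Of the counts of members, the block moved only that for sex and treatment by over 1.5 times. Over all genes it called 1891 in place of 1259 for sex and treatment, and 63 in place of 1 for paclitaxel in females. The median fold change of members moved by less than 0.0757 on the log2 scale, the SD between cords of a group, in every fit. Levels depend on the unit: in TPM the medians were 262.4, 375.9, 675.6 and 299.3 for complexes I, III, IV and ATP synthase (310.1 over all), and with principal transcript lengths 93.86, 138.9, 265.4 and 191.0 RPKM (117.3 over all), with complex IV highest under each. Of the values named, 5 gained a call, all without the filter (Cox8a in 2 comparisons, Cox6a1, Ndufb1-ps and Uqcrh), and 90 calls were lost, mostly when a library was left out. With a pseudocount of 0.1 in place of 1 no correlation gained or lost a call by Pearson's r (Cox6a2 0.62 to 0.58), but Cox6a2 lost its call by Spearman's rho (adjusted permutation p = 0.0756).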
